A study of Mus musculus with 10 samples.

Results

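The 9 genes described here, Atrx, Phf8, Phf6, Suv39h1, Msl3, Rbbp7, Bcor, Hdac8 and Hcfc1, encode chromatin readers, writers and erasers on the mouse X chromosome. They were taken by name from the 24386 genes of the deposited tables, 1028 of them X-linked, and were followed for the loss of reads from one X and for total output over time. Reads were present for 7 of the 9 in every sample, and the other 2, Suv39h1 and Bcor, were listed at 0 in every sample.

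TT-seq (transient transcriptome sequencing), which reads RNA made during a short labelling pulse, was carried out on TX1072, a female embryonic stem cell (ESC) line of genotype WT with one Mus musculus castaneus (Cast) and one C57BL/6 (B6) X chromosome. Doxycycline (DOX) at 1 µg/ml switches on Xist at its own locus on the B6 X. The groups were 0, 4, 8, 12 and 24 h of DOX with 2 replicates each, 10 samples in all, and all groups grew in serum with LIF and 2i and received 0.5 mM 4-thiouridine for 5 min. The 0 h group had no time in DOX. No group had DOX without inducible Xist, and DOX was added after plating, so the drug, Xist RNA and time in culture cannot be told apart as sources of a change in total output. TX1072 is a single line, and the study calls its duplicates biological. The p-values measure the spread between samples of this line, 2 per time, as estimated from all times and genes together.

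X inactivation balances X-linked gene dosage between the sexes. Xist RNA coats the chromosome it is made from, histone acetylation is removed and Polycomb marks are added, and most genes on that chromosome stop being transcribed while those on the other X go on. Several proteins that act in such steps, or that share complexes with them, are themselves encoded on the X, so their own genes are subject to the process. In cells with one Xist-coated X the output of such a gene then comes mainly from the other allele.

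Total counts per sample ran from 18809046 to 22274929, and the part assigned to an allele was lowest in 0 h replicate 1, at 49.2%, where all other samples had 51.7% to 52.8%. Xist, the check of the induction, had 32 and 31 reads at 0 h and 6348 to 14211 in the samples with DOX. The summed level of 8 ESC markers ran from 138 to 153 RPKM (library-scaled reads per kilobase of gene span), with Sox2, which Sox2ot overlaps on the same strand, listed at 0. Marker sums of primitive endoderm, trophoblast, mesoderm, neural and fibroblast cells ran from 0.00152 to 1.2 RPKM. The neural sum, the lowest, lacks Sox1, which Gm5607 overlaps on the same strand and which was also listed at 0.

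Before induction the 7 measured genes differed widely in nascent output per length. Levels are RPKM over the whole gene, introns included, in 0 h replicate 1 and replicate 2. Rbbp7, a histone-binding WD-repeat protein shared by the PRC2, NuRD and Sin3 complexes, had the highest level, 18.5 and 20.0. Atrx, a SNF2-type remodeller that works with Daxx to deposit a histone H3 variant, followed with 13.8 and 14.1, and Hcfc1, a scaffold of H3 lysine methyltransferase complexes, with 9.62 and 8.71. Phf6, a PHD-like zinc finger protein found with NuRD, had 1.42 and 1.48, Phf8, a PHD finger histone demethylase, 1.156 and 1.186, and Msl3, the chromodomain subunit of the MSL histone H4 acetyltransferase complex, 1.09 and 1.10. Hdac8, a class I deacetylase whose best-known substrate is the cohesin subunit Smc3, was lowest at 0.472 and 0.422. The replicate ranges of these 7 genes did not overlap in this order.

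The 7 genes lie on both sides of Xist. In mm10 coordinates, Hdac8 (chrX:102284638-102505158, minus strand) and Atrx (chrX:105797615-105929372, minus) are nearest, 0.955 Mb and 2.31 Mb away. Hcfc1 (chrX:73942792-73966357, minus) is 29.5 Mb away, Phf8 (chrX:151520672-151633857, plus) 48.0 Mb and Phf6 (chrX:52912214-52956961, plus) 50.5 Mb. Rbbp7 (chrX:162760372-162779090, plus) is 59.3 Mb and Msl3 (chrX:168653099-168673902, minus) 65.2 Mb from Xist. Reads were counted over these whole spans, which hold exons, introns and UTRs, and spans ranged from 18.7 kb for Rbbp7 to 220.5 kb for Hdac8. Rbbp7 overlaps Txlng on the opposite strand, and counting was by strand.

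Suv39h1 (chrX:8061171-8074760), a methyltransferase of H3 lysines in heterochromatin, and Bcor (chrX:12036738-12160355), a subunit of a noncanonical Polycomb complex, had no counted read in any sample. Both are minus-strand genes inside the span listed for Btbd35f15, which covers 29.8 Mb of the minus strand (chrX:3750926-33577346). All 82 minus-strand genes that lie inside that span, these included, were at 0 in every sample, 100%, against 30.7% of the 101 plus-strand genes inside it and 18.6% of the 420 minus-strand genes on the rest of the X. Btbd35f15 itself held 7705 to 10237 reads. A read that falls in more than one listed feature on its strand is not assigned by the counter in its usual setting, so the zeros of Suv39h1 and Bcor give no level, and neither gene enters any comparison.

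The allelic balance of each measured gene is given as the d-score, the share of B6 reads among reads assigned to B6 or Cast. Values per replicate carry 95% Wilson intervals in the plot of d-scores by time, and these cover counting error only. At 0 h, the d-scores of Atrx (0.512 and 0.498), Hdac8 (0.529 and 0.491), Hcfc1 (0.491 and 0.481) and Phf8 (0.498 and 0.440) lay near equal output of both alleles. Those of Msl3 were 0.462 and 0.420. Phf6 (0.395 and 0.396) and Rbbp7 (0.377 and 0.330) already leaned to the Cast allele before induction.

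**Figure D1:**
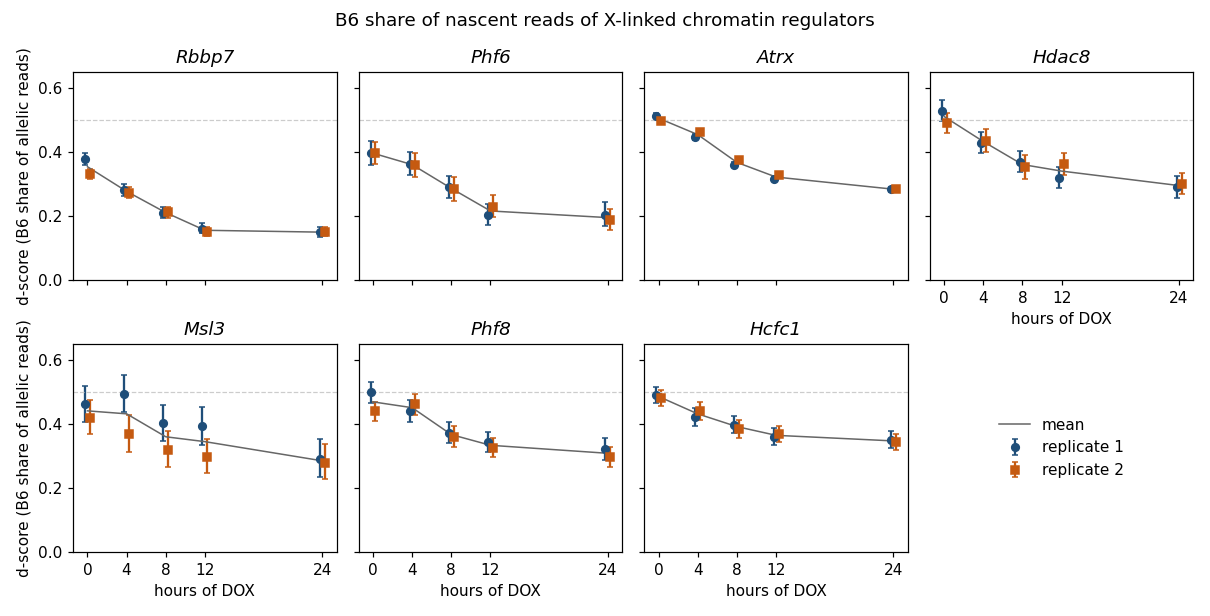
The d-score (B6 share of allelic reads, y axis) against hours of DOX (x axis) for the 7 measured genes, with circles for replicate 1, squares for replicate 2, 95% Wilson intervals as bars and a line through the means. The d-score at 24 h lay below both 0 h values for every gene, and the replicates of Msl3 were furthest apart, at 4, 8 and 12 h.

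B6 reads were lost from all 7 genes over the 24 h, and the first losses were called at 4 h in Atrx, Rbbp7 and Hdac8. The test was edgeR's quasi-likelihood test of the B6 to Cast ratio on the allelic counts, fitted across 11906 genes with Benjamini-Hochberg adjustment. A gene is called at an adjusted p under 0.05. The fit draws on all tested genes to estimate the spread of each, so small p-values do not rest on a gene's own replicates alone. The genes called lower were 3 of 7 by 4 h, 6 by 8 h, 6 by 12 h and 7 by 24 h. Without 0 h replicate 1, which had the lowest assigned part, they were 2, 5, 6 and 7. Among all genes tested, 0.344%, 1.62%, 2.04% and 2.4% were called lower at these times. Among the 362 X-linked genes tested other than Xist, 11.3%, 52.8%, 65.5% and 75.1% were. Over the whole 24 h the ratio changed by a median of -1.31 (log2) over the 7 genes, -1.27 over X-linked genes and 0.01 over all genes. A call depends on precision as well as on the size of a change. At 4 h Atrx was called at log2 -0.30 ± 0.04 SE, with 12642 to 18465 allelic reads per sample. Hcfc1, with 1150 to 1576, was not called at -0.32 ± 0.09 SE.

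Among the readers and remodellers, Atrx was measured most precisely, on 12642 to 18465 allelic reads per sample. Its d-scores were 0.446 and 0.462 after 4 h, 0.360 and 0.374 after 8 h, 0.315 and 0.327 after 12 h and 0.283 and 0.284 after 24 h. Every step lay below the one before it, with no overlap between the replicates of neighbouring times. The first fall, by 4 h, was -0.30 ± 0.04 SE on the log2 scale (edgeR, adjusted p = 4.172e-09). By 24 h it came to -1.37 ± 0.04 SE (edgeR, adjusted p = 3.73e-62). At 24 h, 38.7% of its 0 h B6 to Cast ratio was left.

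Phf6 began from a lower B6 share and lost it mainly between 4 and 12 h. Its d-scores were 0.362 and 0.358 after 4 h, 0.289 and 0.283 after 8 h, 0.201 and 0.229 after 12 h and 0.203 and 0.186 after 24 h. The 12 h and 24 h replicates overlapped. The change at 4 h did not pass the edgeR test (log2 -0.22 ± 0.13 SE, adjusted p = 0.9939), and at 24 h the ratio was down to 36.7% of the 0 h value (log2 -1.45 ± 0.15 SE, adjusted p = 2.036e-15).

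Hdac8 and Phf8 are the erasers of the group. Hdac8 had d-scores of 0.429 and 0.435 after 4 h, 0.368 and 0.352 after 8 h, 0.319 and 0.361 after 12 h and 0.289 and 0.30 after 24 h. Phf8 had 0.439 and 0.462 after 4 h, 0.373 and 0.361 after 8 h, 0.342 and 0.324 after 12 h and 0.321 and 0.296 after 24 h. At 4 h both Hdac8 replicates were below both of its 0 h values, while the Phf8 replicates at 4 h were inside or at the edge of its 0 h range.

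In the edgeR fit the 4 h ratio was called lower for Hdac8 (log2 -0.45 ± 0.11 SE, adjusted p = 0.02878) and not for Phf8 (log2 -0.09 ± 0.11 SE, adjusted p = 0.9939). The difference between these genes was not tested. The Hdac8 call at 4 h was lost in DESeq2 and without 0 h replicate 1 or either 4 h replicate, with adjusted p from 0.009078 to 1 over its 15 alternatives. At 24 h, 40.3% of the 0 h ratio was left for Hdac8 (95% interval of the log2 change, -1.55 to -1.08) and 50.7% for Phf8 (-1.21 to -0.75).

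Among the subunits of larger complexes, Rbbp7 and Hcfc1 formed the ends of the range at 24 h. Rbbp7 had d-scores of 0.281 and 0.273 after 4 h, 0.209 and 0.211 after 8 h, 0.160 and 0.150 after 12 h and 0.148 and 0.150 after 24 h. The 12 h and 24 h replicates overlapped, with no further fall beyond their spread. Its log2 ratio had dropped by 0.50 ± 0.07 SE at 4 h (edgeR, adjusted p = 1.825e-07) and by 1.63 ± 0.08 SE at 24 h (adjusted p = 4.378e-38), which left 32.4% of the 0 h ratio.

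Hcfc1 had d-scores of 0.422 and 0.441 after 4 h, 0.398 and 0.385 after 8 h, 0.360 and 0.368 after 12 h and 0.351 and 0.343 after 24 h. Its change at 4 h missed the threshold (edgeR, log2 -0.32 ± 0.09 SE, adjusted p = 0.109), and from 8 h on the ratio was called lower. At 24 h it was down by 0.83 ± 0.09 SE on the log2 scale (adjusted p = 2.064e-14), with 56.2% of the 0 h ratio left. The 95% intervals of the 24 h changes of Rbbp7 (-1.79 to -1.47) and Hcfc1 (-1.004 to -0.66) did not overlap.

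Msl3 had the fewest allelic reads, 217 to 324 per sample, and the largest spread. Its d-scores were 0.495 and 0.368 after 4 h, 0.401 and 0.318 after 8 h, 0.392 and 0.297 after 12 h and 0.290 and 0.279 after 24 h. The Wilson intervals of the 4 h replicates, 0.437 to 0.552 and 0.313 to 0.428, did not overlap. Replicate 2 was the lower one throughout, and only at 24 h did the replicates lie close together and well below 0 h. By edgeR the ratio was called lower at 24 h alone (log2 -0.98 ± 0.21 SE, adjusted p = 0.0004685), and that call was lost in DESeq2 (adjusted p = 0.2169, the highest of 15 alternatives, the lowest being 5.297e-05). At 12 h its log2 change was -0.60 ± 0.20 SE (adjusted p = 0.1422), and without 12 h replicate 1 it was -0.89 (adjusted p = 0.01958, the lowest of 15 alternatives, the highest being 0.9999).

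The same fit compared successive times to place the losses. From 4 to 8 h the ratio was called lower for 5 of 7 genes (1.18% of all genes, 37.6% of X-linked genes), with Msl3 and Hcfc1 not called. From 8 to 12 h it was called lower for 2, Atrx and Rbbp7 (0.454% of all genes, 13.8% of X-linked genes). From 12 to 24 h it was called lower for Atrx alone (log2 -0.26 ± 0.04 SE, edgeR adjusted p = 3.798e-06). In that interval 0.235% of all genes and 6.91% of X-linked genes were called lower. Msl3 (-0.39 ± 0.22 SE) and Hdac8 (-0.29 ± 0.13 SE) had larger falls with wider errors and were not called. The falls of the other genes were smaller than that of Atrx. Rbbp7 lost a like amount in each of the first 3 intervals, -0.50, -0.52 and -0.54 on the log2 scale, and changed by -0.06 ± 0.09 SE from 12 to 24 h.

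The steps of Phf8 and Phf6 were largest after 4 h. Phf8 moved by -0.50 ± 0.11 SE from 4 to 8 h, and Phf6 by -0.49 ± 0.13 SE from 4 to 8 h and by -0.54 ± 0.15 SE from 8 to 12 h, the latter not called by edgeR (adjusted p = 0.07292). The 4 to 8 h calls of Phf6 and Hdac8 were lost without any one of the 4 libraries compared and the call of Phf8 without 4 h replicate 2 or 8 h replicate 2, leaving 2 to 3 calls. In DESeq2 the 12 to 24 h call of Atrx was lost (adjusted p = 0.1135, the highest of 15 alternatives, the lowest being 3.212e-12).

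**Figure D2:**
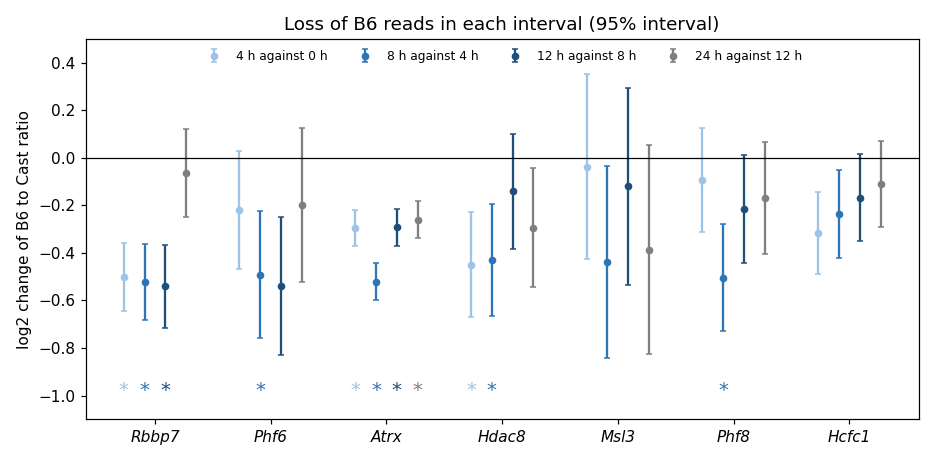
Change in the ratio of B6 to Cast reads (log2, y axis) in each interval between sampled times, for the 7 measured genes (x axis), as points with 95% intervals from the edgeR fit and an asterisk for an adjusted p under 0.05. Atrx has an asterisk in all 4 intervals, Rbbp7 in the first 3, and Msl3 and Hcfc1 in none.

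Speed was summarised as IC35, the time at which the normalised d-score passes 0.35. It takes in depth as well as timing, since a gene that levels off above 0.35 does not pass it however early its loss. For the normalised d-score, each replicate's d-score was taken relative to its own 0 h value and multiplied by 0.5, which puts every gene at 0.5 before induction, and a log-logistic curve was fitted to all samples. Rbbp7 had the lowest IC35, 5.33 h, with 4.67 and 6.05 h from each replicate alone. Phf6 followed at 8.05 h (8.11 and 8.25 h), then Atrx at 8.91 h (8.01 and 9.80 h) and Hdac8 at 8.99 h (7.31 and 11.6 h). The replicate ranges of Phf6, Atrx and Hdac8 overlapped, and that of Hdac8 also overlapped the range of Phf8, so the order of these genes is not resolved.

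Phf8 reached the level at 12.3 h (10.8 and 14.1 h) and Msl3 at 16.2 h (18.1 and 12.9 h), again with overlapping ranges. Hcfc1 did not reach it within 24 h in either replicate. The first 4 h held from 7.19% (Msl3) to 39.1% (Hcfc1) of each gene's 24 h fall in mean normalised d-score, with Rbbp7 at 37.3%. These shares were not tested. The IC35 values depend on the level chosen. The median over the 7 genes was 6.25 h at a level of 0.40 and 19.3 h at 0.30. At 0.40 Hdac8 came before Phf6 and Hcfc1 before Msl3, and at 0.30 Phf8, Msl3 and Hcfc1 did not pass within 24 h. The level was reached by 6 of the 7 genes and by 248 of the 330 X-linked genes with a curve (75.2%). The median IC35 was 8.99 h over the 7 genes and 9.73 h over the X-linked genes, whose middle range ran from 7.25 to 22.9 h. With the mean 0 h d-score as the reference for both replicates, the median over the 7 genes was 8.92 h.

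Depth of loss at 24 h followed nearly the same order as IC35. The IC35 curves were fitted to the same normalised d-scores, 24 h included, so the orders are not independent. The normalised d-scores at 24 h were 0.212 ± 0.022 for Rbbp7, 0.246 ± 0.016 for Phf6, 0.280 ± 0.006 for Atrx and 0.289 ± 0.023 for Hdac8 (mean ± SD, n = 2). They were 0.323 ± 0.013 for Msl3, 0.329 ± 0.010 for Phf8 and 0.357 ± 0.001 for Hcfc1. The replicate ranges of Atrx and Hdac8 overlapped, as did those of Msl3 and Phf8, and the other neighbours in the order did not. These ranges and SDs rest on pairing by replicate number and take in the spread of the 0 h values. The d-scores of Rbbp7 were 0.148 and 0.150 at 24 h and 0.377 and 0.330 at 0 h. Of the 330 X-linked genes, 23.3% had a lower value than Rbbp7 and 76.1% a lower value than Hcfc1, around a median of 0.296.

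Distance to Xist did not order the 7 genes. Hdac8 and Atrx, the nearest, were in the middle of the range, Rbbp7 at 59.3 Mb lost most, and Hcfc1 at 29.5 Mb lost least. No correlation is given for 7 genes that share libraries.

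**Figure D3:**
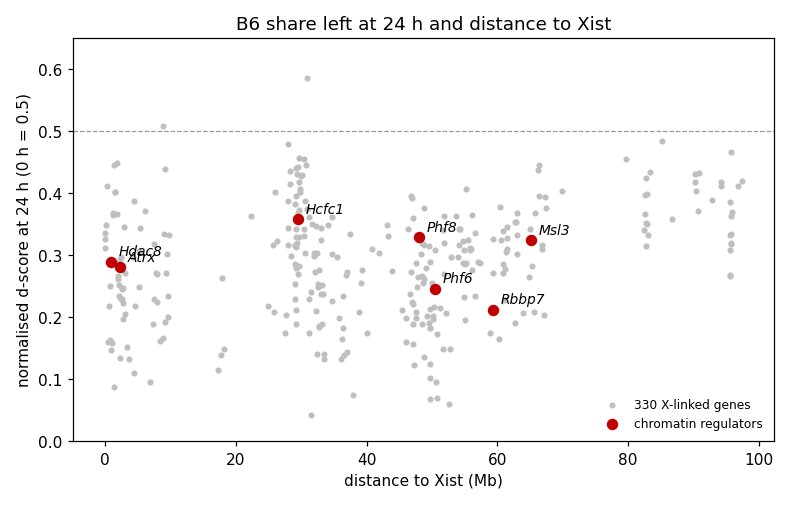
The normalised d-score at 24 h (y axis, mean of 2 replicates, 0.5 at 0 h) against distance to Xist in Mb (x axis) for 330 X-linked genes in grey and the 7 chromatin regulators in red. The red points run from 0.212 (Rbbp7) to 0.357 (Hcfc1), inside the cloud of grey points at their distances.

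For the genes at both ends, the X-linked genes with the most similar course were found by the root mean square difference of normalised d-scores over the 10 samples, among 257 genes that had 50 or more allelic reads throughout. Nearest to Rbbp7 were Tbl1x (0.0156), Pgk1 (0.0159) and Pdk3 (0.0197), none of them within 50 Mb of it. Nearest to Hcfc1 were Ogt (0.0152), the glycosyltransferase that modifies and cleaves Hcfc1, Gprasp1 (0.0157) and Eda2r (0.0158). Their normalised d-scores at 24 h were 0.366 for Ogt, 0.347 for Gprasp1 and 0.371 for Eda2r.

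Promoter sequence of 8 of the 9 genes was matched in RefSeq (GRCm38.p6, the mm10 assembly), as the 250 bases before the annotated start. The windows of Rbbp7, which lost most, and Phf8, which kept over 50% of its ratio at 24 h, are printed 5′ to 3′ because they differ in CpG content and in the elements they hold. Capitals mark matches to any of 4 promoter elements, read on either strand. The TATA box was searched as TATAAA. For the element bound by NF-Y the letters were CCAAT. The Sp1-type GC box was spelled GGGCGG. For the core of the YY1 site, which names a zinc finger factor, the letters were ATGGCG, and in Phf8 one such match overlaps a match to the NF-Y element. The Rbbp7 window is chrX:162760122-162760371 on the plus strand, and the Phf8 window, which stops 40 bases before the start, is chrX:151520422-151520631 on the plus strand.
Rbbp7: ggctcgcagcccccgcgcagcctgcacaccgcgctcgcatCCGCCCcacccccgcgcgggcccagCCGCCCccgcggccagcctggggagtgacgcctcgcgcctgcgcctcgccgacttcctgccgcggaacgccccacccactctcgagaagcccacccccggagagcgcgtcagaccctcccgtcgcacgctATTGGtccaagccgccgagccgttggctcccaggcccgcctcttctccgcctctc
Phf8: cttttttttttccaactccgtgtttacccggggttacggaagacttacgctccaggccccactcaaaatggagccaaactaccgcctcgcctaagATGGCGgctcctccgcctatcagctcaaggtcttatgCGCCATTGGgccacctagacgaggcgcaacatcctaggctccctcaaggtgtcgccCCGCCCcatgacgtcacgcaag

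The 250 bases before Rbbp7 held 34 CpG dinucleotides and those before Phf8 held 19, against a median of 6 over 32526 promoters. Msl3, with 50.6% of its 0 h ratio left at 24 h, had 30, and Hcfc1, with 56.2% left, had 19. Bcor had 16, Suv39h1 11, and Atrx and Hdac8 6 each. A YY1 core was matched in the windows of Phf8 and Hcfc1, at 2 places each, and of Suv39h1, at 1 place, and in 5.76% of all promoters. A GC box was matched in those of Phf8, Suv39h1, Msl3, Rbbp7 and Hcfc1 (33% of all promoters), the NF-Y element in those of Atrx, Phf8, Suv39h1, Rbbp7 and Hdac8 (33.8%), and a TATA box in that of Hdac8 (12.3%). These matches describe the letters of the windows and were not tested against the loss of B6 reads.

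Total output of the 7 genes stayed closer to its 0 h level than their B6 output did. Totals are library-scaled counts as a percentage of the 0 h mean, for replicate 1 and replicate 2. At 24 h they were 78.0% and 75.5% for Atrx, 73.1% and 71.4% for Phf6, 75.8% and 75.7% for Hdac8, and 87.3% and 84.5% for Phf8. Rbbp7 was at 79.4% and 76.6%, Msl3 at 71.5% and 72.2%, and Hcfc1 at 86.3% and 82.4%. Every 24 h value was below both 0 h values of its gene, and none was near 50%. That is the level at which a gene with equal alleles would stand had one of them stopped. Genes that leaned to Cast at 0 h, chiefly Phf6 and Rbbp7 (mean d-scores 0.396 and 0.353), would stand higher with B6 stopped. For them 50% is too low a mark.

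The main edgeR quasi-likelihood test across 14525 genes had no replicate block. By it no total was called lower at 4, 8 or 12 h, and 5 of 7 were at 24 h. With the block, described below, 2 were called at 8 h and 5 at 12 h. The genes with an unadjusted p under 0.05 numbered 1, 4, 5 and 7 at 4, 8, 12 and 24 h, and DESeq2 called 0, 1, 1 and 5. By the main test 0%, 0.186%, 0.854% and 1.54% of all genes were called lower at 4, 8, 12 and 24 h. Of the 502 X-linked genes tested, 0%, 5.38%, 22.5% and 38% were. No such shares are given for the fit with the block, for DESeq2 or for unadjusted p-values. The called totals at 24 h were Atrx (log2 -0.37 ± 0.08 SE, adjusted p = 0.02201), Phf6 (-0.46 ± 0.08 SE, 0.004634), Msl3 (-0.47 ± 0.10 SE, 0.02861), Rbbp7 (-0.35 ± 0.08 SE, 0.02835) and Hdac8 (-0.39 ± 0.08 SE, 0.02419). Phf8 (-0.21 ± 0.07 SE, adjusted p = 0.2225) and Hcfc1 (-0.23 ± 0.07 SE, adjusted p = 0.1522) did not pass. The median log2 change at 24 h was -0.37 over the 7 genes, -0.50 over X-linked genes and 0.01 over all genes.

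With replicate number as a block, the calls numbered 0, 2, 5 and 6 at 4, 8, 12 and 24 h. The shares of all genes and X-linked genes given above are from the fit without the block and cannot be set beside these counts. Hdac8 and Hcfc1 were called at 8 h, Atrx, Phf6, Rbbp7, Hdac8 and Hcfc1 at 12 h, and Hcfc1 was added at 24 h (adjusted p = 0.02424, the lowest of 16 alternatives, the highest being 0.5297). Most 24 h calls were near the threshold, and they numbered 3 without 0 h replicate 1, 2 without 0 h replicate 2, 1 without 24 h replicate 1 and 0 without 24 h replicate 2.

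**Figure D4:**
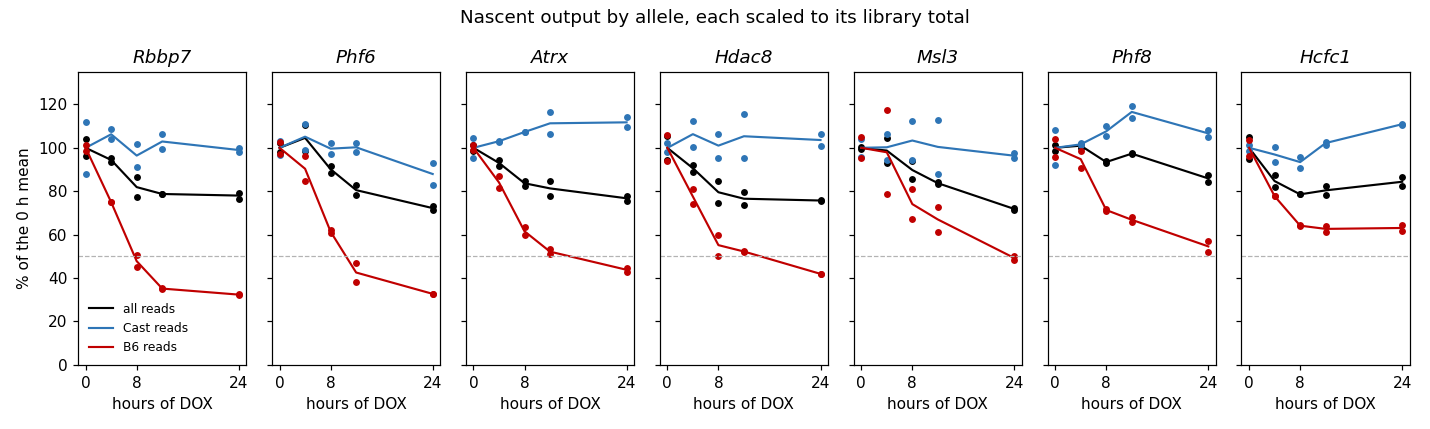
Nascent output of the 7 measured genes as a percentage of the 0 h mean (y axis) against hours of DOX (x axis), for all reads in black, Cast reads in blue and B6 reads in red, each scaled to the library total of its kind, with points for replicates and lines through means. B6 output at 24 h runs from 32.4% (Rbbp7) to 63.1% (Hcfc1), while Cast output runs from 87.9% (Phf6) to 111.7% (Atrx).

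B6 and Cast output were each scaled to the library total of their own allele. B6 output at 24 h stood at 32.4% of the 0 h mean for Rbbp7, 32.7% for Phf6, 41.9% for Hdac8, 43.8% for Atrx, 49.2% for Msl3, 54.6% for Phf8 and 63.1% for Hcfc1. Cast output at 24 h was 99.0% ± 1.6 for Rbbp7, 87.9% ± 7.0 for Phf6, 103.6% ± 3.7 for Hdac8 and 111.7% ± 3.4 for Atrx (mean ± SD, n = 2). It was 96.4% ± 1.7 for Msl3, 106.6% ± 2.3 for Phf8 and 110.9% ± 0.4 for Hcfc1.

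No Cast change was called by edgeR for any of the 7 genes at any time, where 0%, 0%, 0.00839% and 0.176% of 11923 genes were called in either direction at 4, 8, 12 and 24 h. An unadjusted p under 0.05 was reached by 0, 0, 2 and 1 of the 7 genes, and DESeq2 called 0 at each time. The 95% interval of the Cast log2 change at 24 h was 0.01 to 0.34 for Atrx, -0.01 to 0.34 for Hcfc1 and -0.38 to 0.05 for Phf6, so changes of that size are not excluded by these counts.

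Hcfc1 had its lowest total before the end of the course. Its mean total was 84.7% of 0 h after 4 h, 78.6% after 8 h, 80.4% after 12 h and 84.4% after 24 h, and B6 output was 77.7%, 64.2%, 62.7% and 63.1% at these times. Cast output was 96.9%, 93.4%, 102.2% and 110.9%. At 24 h both replicates, 86.3% and 82.4%, were above both 8 h replicates, 78.6% and 78.5%. Relative to its own 0 h value, replicate 1 went from 74.9% at 8 h to 82.2% at 24 h and replicate 2 from 82.7% to 86.7%. The change between these times was not tested.

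Totals were also set beside what the allelic counts alone would give. Were Cast output unchanged, the d-scores of Rbbp7 would leave a total of 76.0% ± 4.0 at 24 h (mean ± SD, n = 2), and the total counts gave 78.2% ± 6.3 of the same replicate's 0 h value. For Atrx the corresponding values were 69.1% ± 1.5 and 76.8% ± 3.2, and for Phf8 76.7% ± 4.0 and 85.9% ± 3.5. The mean of the total counts was above the value from the d-scores for 5 of the 7 genes. It was below it for Phf6, 75.02% ± 1.2 from the d-scores and 72.3% ± 3.3 from the total counts, and for Msl3, 78.2% ± 3.3 and 71.8% ± 0.07. Rbbp7 kept less of its 0 h B6 to Cast ratio than Atrx, 32.4% against 38.7%, and their totals at 24 h were within the spread of each other.

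Most of the other X-linked chromatin genes that could be tested also lost B6 reads. Of a list of 21, 13 could be tested for the B6 share. At 4, 8, 12 and 24 h edgeR called 1, 8, 11 and 10 of them lower, where DESeq2 called 0, 5, 7 and 9. By edgeR, 11.3%, 52.8%, 65.5% and 75.1% of X-linked genes and 0.344%, 1.62%, 2.04% and 2.4% of all genes were called lower at these times. The median log2 change of the 13 listed genes at 24 h was -1.13. The largest called change was that of Morf4l2 (-1.97 ± 0.12 SE), an MRG-domain relative of a chromodomain protein, and the smallest that of Brcc3 (-0.69 ± 0.10 SE), a deubiquitinase. The genes not called at 24 h were Kdm6a (-0.10 ± 0.04 SE, adjusted p = 0.3559), a demethylase gene known to escape X inactivation, Hmgb3 (-1.13 ± 0.35 SE, adjusted p = 0.05155) and Nap1l2 (-0.54 ± 0.60 SE, adjusted p = 0.9371). Totals of 6 of 18 were called lower at 24 h by edgeR and 7 by DESeq2, where edgeR called 38% of X-linked genes and 1.54% of all genes. Hdac6 of this list lies in the Btbd35f15 span and was at 0.

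Autosomal partners and paralogs of the 9 genes were followed as a contrast. They include Daxx, Rbbp4, Suv39h2, the other class I deacetylase genes, subunits of MSL, PRC2 and NuRD, and Smc3. Of 32 genes, 30 could be tested for the B6 share and 32 for totals, and edgeR called none at any time. At 24 h an unadjusted p under 0.05 was found for 1 B6 share and 4 totals, and DESeq2 called 0 of each. The median log2 change at 24 h was 0.02 for the B6 share and 0.06 for totals. Rbbp4, the autosomal paralog of Rbbp7, had a total log2 change of 0.05 ± 0.09 SE at 24 h, and Suv39h2, the paralog of the unmeasured Suv39h1, -0.02 ± 0.11 SE. Of all genes, edgeR called 286 lower in B6 share (2.4%) and 224 lower in total (1.54%) at 24 h. X-linked genes made up 272 and 191 of these, so few calls would fall in any autosomal list of this size.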

How the data were processed

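TT-seq libraries of 10 samples, 2 per time, were analysed from the deposited tables. By the study's methods, the authors trimmed reads with Cutadapt, aligned them with STAR 2.3.0 to mm10 with strain-variant positions masked, kept unique proper pairs, assigned pairs to alleles with SNPSplit 0.3.2 and counted them by strand over whole gene spans with featureCounts 1.5.1. The submitters' processing notes name TopHat2 2.1.0 and bedtools as well. The deposited values of the authors are raw counts per gene (all reads, B6 reads, Cast reads) and a fraction, B6 over B6 plus Cast, which matched the counts within 5e-07. Counts from libraries without molecular identifiers are not independent molecules. Spike-ins were not used here, so totals are relative to the library.

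From these counts, edgeR 4.0.16 in R 4.3.3 was fitted across all genes and all 10 samples, two-sided. Total and Cast counts were filtered by filterByExpr and scaled by TMM, with a term for time. B6 and Cast counts of genes with 10 or more allelic reads throughout were fitted as 20 columns with sample intercepts, allele and allele-by-time terms, both alleles of a sample sharing one library size. Curves for IC35 used genes with a mean 0 h d-score of 0.3 to 0.7, and genes that did not reach 0.35 were set to 24 h. Alternatives were DESeq2 1.42.0, other filters and scalings, a replicate block and leaving out each sample. Genes were named by a rule: all 9 members, Xist, the 3 genes nearest in course to the members with the least and most B6 share left, and the extreme and uncalled genes of the lists. The members and lists were chosen with earlier results of these data known. On simulated data the fits were tested with known changes before use. Python 3.11.15 with numpy 2.4.6, scipy 1.17.1 and pandas 2.3.3 did the remaining steps.

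Replicates of a time had Pearson's r of log2 CPM across genes of 0.995 to 0.996 and a chi-square per degree of freedom of 5.08 to 10.8, so they were separate libraries. Replicate numbers come from the labels. Deviations of same-numbered samples correlated in total counts (r over 0.1 in 10 of 10 pairs of times, 0.176 to 0.386). The numbers were therefore taken to pair the samples for totals. For Cast counts r was over 0.1 in 9 of 10 pairs (0.0921 to 0.207). The numbers did not pair the samples for the B6 to Cast ratio (0 of 10 pairs, 0.0150 to 0.0575). The main fits of totals and Cast counts had no replicate block, and fits with a block were alternatives.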

Additional observations from a re-analysis of the deposited data

How the results depend on the processing

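Over all alternatives, 1548 of 1603 tests of single members kept their side of the threshold, 36 lost a call and 19 gained one. No test that was called in either fit changed direction. Tests called in neither fit were counted as kept even where the sign changed, as for Msl3 at 4 h (B6 share, log2 -0.43 to 0.32 over 15 alternatives). Calls of totals were the least stable. Leaving out single libraries gave 0 to 5 members with a lower total at 24 h, 0 to 1 at 12 h (1 without 0 h replicate 1), and 2 to 5 with a lower B6 share from 4 to 8 h. Members with a lower total numbered 2 at 8 h and 5 at 12 h with the replicate block, 1 and 1 in DESeq2, and at 12 h 4 with library size alone and 2 without a filter on low counts. Shares of all genes called are given for the main fits only. For the B6 share from 4 to 8 h, DESeq2 called 2 and dropping the minimum of allelic reads 3, and from 12 to 24 h DESeq2 called 0. The block changed 1 call on the B6 share, that of Phf6 from 8 to 12 h (adjusted p = 0.04015 in edgeR, the lowest of 15 alternatives, the highest being 1), and no call on Cast counts. The B6 share of Phf8 at 8 h was not called without 0 h replicate 1 (adjusted p = 0.07388 in edgeR, the highest of 15 alternatives, the lowest being 1.742e-06). The median IC35 was 19.3 h at a level of 0.30, 6.25 h at 0.40, and 8.11 to 11.6 h with 1 replicate left out. Of 42 IC35 values of single members under the alternatives, 16 moved by more than the spread between replicates. The cause of these shifts was not tested, beyond fewer samples or genes in the fit. With 217 to 324 allelic reads per sample and replicates further apart than counting error at 4 h, Msl3 has wide intervals, and the part of depth in this was not tested.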
